A study of Mus musculus with 4 samples.

Results

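Near-fully methylated CpG-poor clusters are short stretches of autosomal DNA with few CpGs and almost every read methylated. They were chosen from reduced representation bisulfite sequencing (RRBS), which cuts DNA with the enzyme MspI at CCGG, keeps short fragments and reads an unmethylated cytosine as thymine after bisulfite treatment. A cluster was a run of at least 3 CpGs, each read at least 10 times in every one of the 4 libraries, with neighbours at most 100 bp apart. A cluster entered this group if it averaged at most 4 CpGs within 100 bp on either side of each of its CpGs, each itself included, and if its reads pooled over the 0-division and 1-division libraries were at least 90% methylated. In all, 5437 clusters met the rule, which is 5.46% of 99566 clusters and 22.2% of the 24438 autosomal CpG-poor clusters. Density counted CpGs listed in any library, so that CpGs outside the sequenced fragments did not enter it.

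The study followed DNA methylation in the first days of reprogramming of mouse embryonic fibroblasts (MEFs). All cells were secondary, inducible MEFs from a 129/SvJ x C57/B6 hybrid; secondary MEFs come from animals made with reprogrammed cells and hold the reprogramming factors as transgenes that doxycycline switches on. The uninduced control carried the same transgenes without induction. The 3 other groups had 96 hours of doxycycline and had passed through an average of 0 divisions, 1 division, or more than 3 divisions; for the last, one label reads ">3" and another gives a minimum of 3. The labels name 10% serum for growth, 15% serum with 2 ug/ul doxycycline, and a starvation medium with 0.5% serum, and do not tie the starvation medium to a cohort. Each group had 1 library, so no value has a replicate check: a test compares 2 libraries, not the conditions, and differences between cultures, library preparation and division cannot be told apart. Summed over CpGs, the libraries held between 84606824 reads (control) and 94775128 reads (>3-division). Values at 0, 1 and >3 divisions are those of the induced cohorts. Of the reads, 44.4% were methylated in control, 44.6% at 0 divisions, 43.5% at 1 division and 26.0% at >3 divisions. This share counts each CpG by its reads, so it also moves with where the reads lie. Pooled over all 99566 clusters it was 34.5% in control and 19.3% at >3 divisions. With equal weight per cluster the mean level was 54.2% in control and 50.6% at >3 divisions. The labelled cell type was not checked, since the tables hold positions and read counts with no gene.

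DNA methylation in mammals sits mainly on CpGs. Most CpGs outside CpG islands are methylated in somatic cells, and methylated cytosines mutate easily, which has left most of the genome poor in CpGs. After replication the maintenance enzyme DNMT1, brought to the new DNA by UHRF1, copies methylation from the parent strand. Methylation can therefore be lost passively when copying fails at division, or actively when TET enzymes oxidise methylcytosine. Sites near full methylation can show losses but hardly gains.

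The clusters were small. They held 17877 CpGs in 326819 bp; 4032 clusters (74.2%) had 3 CpGs, 1290 had 4 and 115 had 5 or more, with at most 17. The median span was 55 bp (quartiles 25 and 90 bp), against 74 bp in CpG-poor clusters with pooled levels from 70% to under 90%. Depth was uneven between the libraries: the median number of reads summed over a cluster was 231 in control, 233 at 0 divisions, 225 at 1 division and 112 at >3 divisions. The lowest cluster had 30 reads in every library, the minimum the rule allows. The clusters took 1.60% of all reads in control, 1.64% at 0 divisions, 1.56% at 1 division and 0.904% at >3 divisions. The demand for reads at >3 divisions removed some clusters. Without it, 7795 clusters met the rule, of which 64 had no read and 563 had under 10 reads at >3 divisions; the 5437 are 69.7% of that number.

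Near-full methylation held in the control library and was less common at >3 divisions, neither of which chose the clusters. The median level was 93.6% in control (quartiles 91.4% and 95.5%), 93.3% at 0 divisions (91.4% and 95.1%), 93.9% at 1 division (92% and 95.7%) and 91.8% at >3 divisions (87.8% and 94.6%). The levels of the 0-division and 1-division libraries are a description, because they chose the clusters. At least 90% methylation was measured in 4638 clusters of control (85.3%), 4856 at 0 divisions (89.3%), 5015 at 1 division (92.2%) and 3439 at >3 divisions (63.3%). The SD over clusters was 3.31 points in control, 2.67 at 0 divisions, 2.61 at 1 division and 6.14 at >3 divisions, so the >3-division library had both a lower centre and a wider spread. Levels from 80% to under 90% were found in 1668 clusters at >3 divisions (30.7%), against 783 of control (14.4%). Levels under 80% were found in 330 clusters at >3 divisions (6.07%), against 16 of control (0.294%), and 60 clusters at >3 divisions lay under 70%, where control had 0. Every read was methylated in 79 clusters at >3 divisions and in 30 of control, on fewer reads per cluster at >3 divisions.

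**Figure D1:**
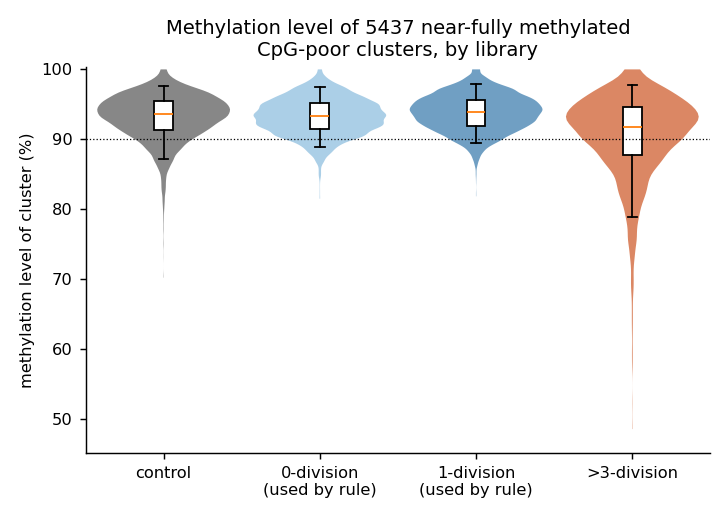
Methylation level (%) of the 5437 clusters in each library; shapes show the distribution over clusters, boxes the quartiles and median, whiskers the 5th and 95th percentiles, and the dotted line 90%. The medians are 93.6% in control, 93.3% in 0-division, 93.9% in 1-division and 91.8% in >3-division, whose distribution reaches down to 48.5%.

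Whether the clusters lost methylation in the cohort that had divided most is addressed by >3-division minus control. The typical change was small and downward, with a tail of larger falls. Of the 5437 clusters, 3673 (67.6%) were lower at >3 divisions, 1750 were higher and 14 were equal; over all 99566 clusters, 72.5% were lower. The median difference was -1.88 points (quartiles -5.07 and 0.74) and the mean -2.72 points (SD 5.66 over clusters), against a median of -1.28 and a mean of -3.58 points over all clusters. A cluster was called changed at a Benjamini-Hochberg adjusted p under 0.05 over all clusters (Fisher's exact test, two-sided, on its read counts) and a difference of at least 10 points. By this rule 397 clusters (7.30%) fell and 12 (0.221%) rose, against 11% that fell and 0.577% that rose among all clusters. A fall of at least 10 points, without a test, was measured in 501 clusters (9.21%), against 14.1% of all clusters. Both shares of falling clusters lay below those over all clusters. The call rests on read counts, and these clusters had a median of 112 reads at >3 divisions, against 293 over all clusters. The part of this gap in the lower shares was not tested. The thinning that follows evens depth between libraries, not between these clusters and all clusters. Thinned to equal depth at each CpG, 3.18% of these clusters fell, against 7.89% of all, and with reads divided by the overdispersion between the 1-division and control libraries 3.22% fell, against 7.03% of all. With a coverage minimum of 20 reads the share was 4.69%, against 9.47% of all, and among clusters read at >3 divisions at least 0.9 times as deeply as in control 0.770%, against 4.68% of all such clusters. With 10 reads required in control, 0-division and 1-division only, the share was higher, at 10.1%, against 12.6% of all. The labels name no molecular identifiers and CpGs on one read are not independent, so these p-values are too small, and all intervals here cover counting error only.

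Read as unmethylated DNA, the same numbers give a larger proportional change. The mean unmethylated share was 9.55% at >3 divisions and 6.83% in control, a ratio of 1.40. With reads pooled over clusters the shares were 8.69% at >3 divisions and 6.66% in control, a ratio of 1.31. Most clusters stayed on their side of 90%: 3177 (58.4%) were at or above it in both libraries and 537 (9.88%) below it in both. A further 1461 clusters (26.9%) were under 90% at >3 divisions and at or above it in control, and 262 (4.82%) showed the reverse. A drop from near-full to under 80% was uncommon, with 197 clusters (3.62%) under 80% at >3 divisions and at or above 90% in control.

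The 397 clusters that fell had levels in the other libraries close to those of the rest. For the 0-division and 1-division libraries the 90% rule largely sets this. Their median level was 93.2% in control, 92.4% at 0 divisions, 92.8% at 1 division and 78.6% at >3 divisions. The 5028 clusters that were not called had medians of 93.6% in control, 93.4% at 0 divisions, 94% at 1 division and 92.2% at >3 divisions. The median difference of the falling clusters was -14.2 points (quartiles -18.1 and -11.9), and 237 of them were under 80% at >3 divisions. They had a median of 78 reads at >3 divisions and 246 in control. The 12 clusters that rose had median levels of 83.8% in control, 90.3% at 0 divisions, 93.2% at 1 division and 97.2% at >3 divisions. In all 397 falling clusters >3 divisions gave the lowest of the 4 levels, and in all 12 rising ones control did, so that the rising clusters had met the 90% rule through the induced cohorts.

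Among groups of clusters like these, the median difference in points moved more with the starting level than with CpG density. The share that fell moved with both. CpG-poor clusters with pooled levels from 70% to under 90% (11464 clusters) had a median difference of -3.86 points between >3-division and control, and 1860 of them (16.2%) fell. Clusters of intermediate density, over 4 and under 12 CpGs, with pooled levels of at least 90% (12059 clusters) had a median difference of -1.86 points, and 679 (5.63%) fell. The 424 CpG-dense clusters at 90% or above had a median of -1.32 points, and 13 (3.07%) fell. The ratio of mean unmethylated shares, >3-division over control, was 1.40 in the near-fully methylated CpG-poor clusters, 1.29 in the CpG-poor clusters of 70% to under 90%, 1.36 at intermediate density and 1.21 in CpG-dense sequence. The groups also differed in depth: the median ratio of reads, >3-division over control, was 0.546, 0.710, 0.468 and 0.967 in the same order. With 1 library per group, the differences between these groups of clusters have no test over samples. Nothing is called particular to the near-fully methylated CpG-poor clusters from them.

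**Figure D2:**
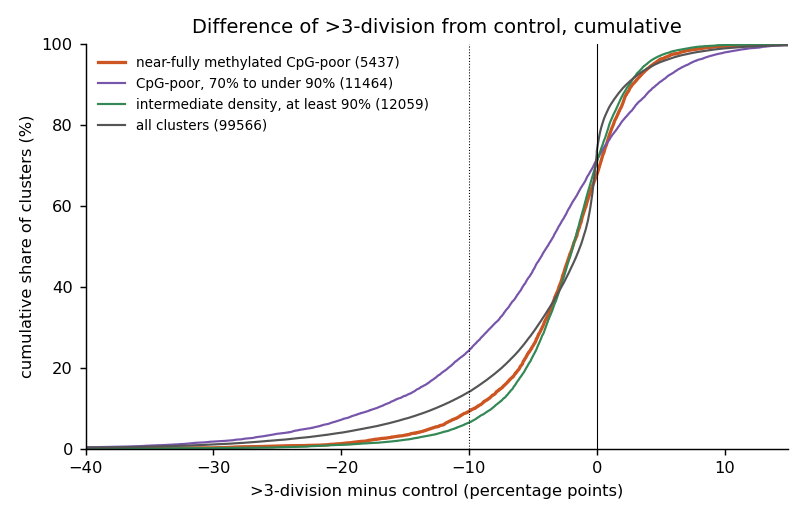
Cumulative share of clusters (%) against the difference of >3-division from control in percentage points, for 4 groups of clusters named in the legend with their numbers; the solid line marks no difference and the dotted line a fall of 10 points. The curve of the near-fully methylated CpG-poor clusters runs close to that of intermediate density at 90% or above, with medians of -1.88 and -1.86 points, and right of the CpG-poor clusters of 70% to under 90%, whose median is -3.86 points.

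The values near the 90% limit show no step. The 742 clusters from 90% to under 91% had a median difference of -2.62 points between >3-division and control and 10.4% of them fell. The 737 CpG-poor clusters from 89% to under 90% had a median of -3.36 points and 11% fell. Among deep clusters just inside the limit, 6 CpGs on chromosome 7 from 108548028 to 108548169 had levels of 88% in control, 90.5% at 0 divisions, 89.5% at 1 division and 85.8% at >3 divisions. Just outside, 4 CpGs on chromosome 2 from 70432745 to 70432785 had 89.6%, 89%, 91.1% and 88.2% in the same libraries. At the density limit, 4 CpGs on chromosome 5 from 138301313 to 138301366, with a density of 4, were at 91% in control, 89.8% at 0 divisions, 93.0% at 1 division and 89.9% at >3 divisions. Just outside it, 10 CpGs on chromosome 12 from 5058350 to 5058813, with a density of 4.1, were at 95.3% in control, 94.2% at 0 divisions, 94.9% at 1 division and 88.4% at >3 divisions. Positions are on mm9 and printed as listed in the deposited tables.

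To set the >3-division library against the other induced cohorts, clusters were chosen by the level of the single cohort that was not compared. Choosing by the 1-division library alone gave 5818 clusters and by the 0-division library alone 5450, of which 4434 were shared, 76.2% of the first list and 81.4% of the second. In >3-division minus 0-division, on the first list, the median level was 91.3% at >3 divisions and 92.7% at 0 divisions and the median difference -1.43 points. There 422 clusters (7.25%) fell and 26 rose, against 11.2% that fell and 0.614% that rose over all clusters. In >3-division minus 1-division, on the second list, the medians were 91.5% at >3 divisions and 93.5% at 1 division and the median difference -1.92 points. There 401 clusters (7.36%) fell and 8 rose, against 11.5% and 0.503% over all clusters. Thinned to equal depth, the falling shares were 3.78% in the first of these comparisons, against 8.38% of all clusters, and 3.52% in the second, against 8.46%. These comparisons share the >3-division library with the one above, so they are not separate evidence.

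The cohorts that had divided little stayed near control. In 0-division minus control, on clusters chosen by the 1-division library, the median level was 92.7% at 0 divisions and 93.3% in control, with a median difference of -0.43 points. Here 13 clusters (0.223%) fell and 8 (0.138%) rose, against 0.376% that fell and 0.395% that rose over all clusters. In 1-division minus control, on clusters chosen by the 0-division library, both median levels were 93.5% and the median difference was 0.050 points. Here 4 clusters fell and 4 rose (0.0734% each), against 0.132% and 0.215% over all clusters. These comparisons share the control library. At median depths of 223 to 229 reads in the 1-division comparison and 228 in each library of the 0-division comparison, few clusters passed the limits in either.

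Of the features compared, the difference between >3-division and control varied most with the ratio of reads in those libraries. The clusters were put in 4 classes of near-equal number by this ratio. In the class from 0.0745 to 0.349 the median difference was -3.82 points and 235 clusters (17.3%) fell. In the class from 0.349 to 0.546 it was -2.33 points, and 101 (7.43%) fell. In the class from 0.546 to 0.876 it was -1.52 points, and 51 (3.75%) fell. In the class from 0.876 to 7.18 it was -0.45 points, and 10 (0.736%) fell. Most of the 397 falling clusters were thus in the classes with the lower ratios. After each CpG was thinned to its lowest coverage of the 4 libraries, the medians were -3.85, -2.38, -1.80 and -0.48 points in the same order. The class of lowest ratio had a lower median than the class of highest ratio on 19 of 19 autosomes. The Spearman correlation between ratio and difference was 0.295 across the clusters, which share both libraries. It was 0.373 in CpG-poor clusters of 70% to under 90% and 0.294 at intermediate density and 90% or above, so those groups showed it too. For 0-division minus control, with its own depth ratio, the correlation was 0.070, and for 1-division minus control -0.0075. The part of the depth ratio in the result was not tested further.

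**Figure D3:**
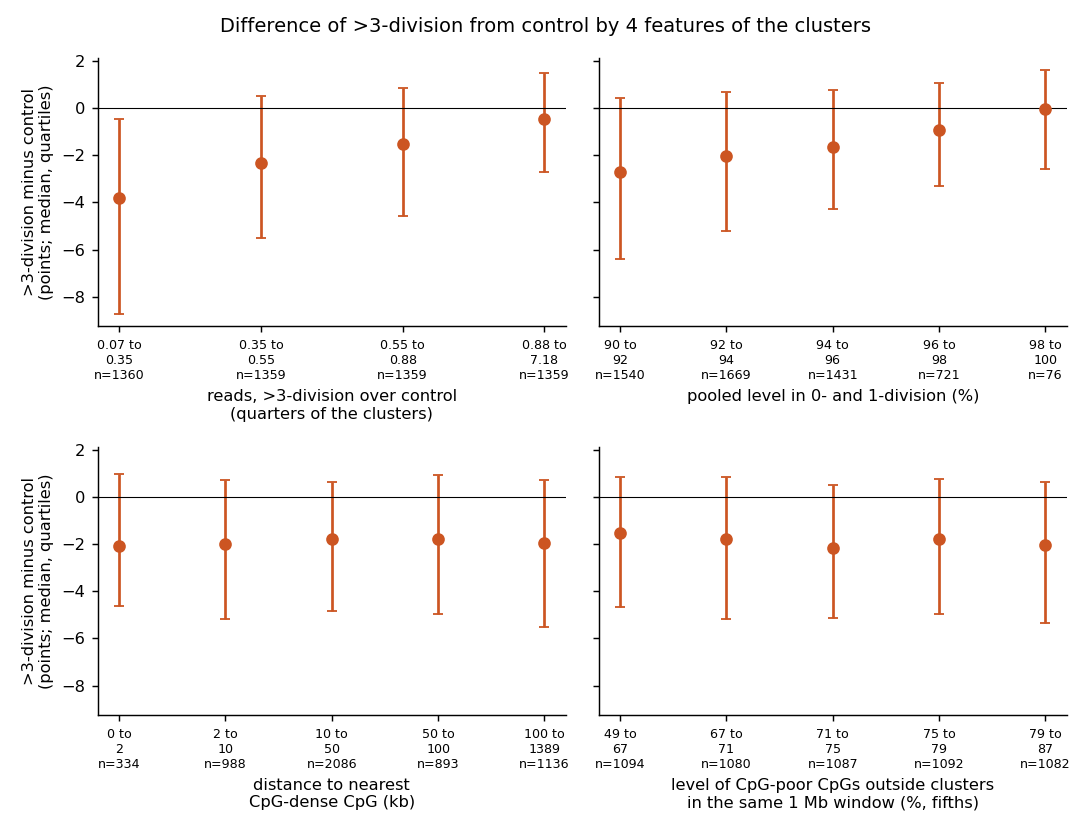
Difference of >3-division from control in percentage points (points are medians, bars quartiles) in the 5437 clusters, by the ratio of reads, by the pooled level in 0-division and 1-division, by distance to the nearest CpG-dense CpG, and by the level of the surrounding 1 Mb window; the number of clusters stands under each point. The median moves from -3.82 to -0.45 points over the depth ratio and from -2.73 to -0.028 points over the pooled level, and stays between -2.17 and -1.52 points over distance and window level.

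The starting level also ordered the difference. Clusters with pooled levels from 90% to under 92% in the 0-division and 1-division libraries had a median difference of -2.73 points between >3-division and control, and 10.3% of 1540 fell. From 92% to under 94% the median was -2.03 points, from 94% to under 96% -1.65 points and from 96% to under 98% -0.94 points. The 76 clusters at 98% or above had a median of -0.028 points, and 1 of them fell. The most fully methylated clusters thus changed least in points. The falling share moved in opposite directions with the depth of different libraries. Of the 670 clusters whose lowest read sum was from 30 to 49 reads, 12.4% fell, and of the 100 with at least 400 reads in every library 1 fell, with a median difference of -0.86 points; the median ratio of reads, >3-division over control, was 0.300 in the first of these classes and 0.999 in the second. By reads per CpG in the 0-division and 1-division libraries alone, 3.89% fell in the class from 11.5 to 48.7 reads (median difference -0.82 points) and 9.0% in the class from 92.3 to 2546 reads (-2.32 points).

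Position in the genome went with the difference far less. RRBS clusters can lie beside CpG islands, and distance was taken to the nearest CpG with at least 12 CpGs within 100 bp. The median distance was 31555 bp, against 46622 bp for CpG-poor clusters of 70% to under 90%, and 334 near-fully methylated clusters (6.14%) were within 2 kb. Their median difference between >3-division and control was -2.07 points within 2 kb, -2.01 points from 2 to 10 kb, -1.81 points from 10 to 50 kb, -1.79 points from 50 to 100 kb and -1.97 points beyond. The share of CpG-poor clusters that met the 90% rule was 12.7% within 1 kb of a CpG-dense CpG, 27.4% from 2 to 10 kb and 18.9% beyond 100 kb. Near-full methylation was thus least common beside CpG-dense sequence and most common a few kb away, while the later difference did not follow distance.

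Cultured cells can hold long domains of partial methylation, so the level of the surroundings was also compared. For each cluster this was the mean level, in the 0-division and 1-division libraries, of CpG-poor CpGs outside the CpG-poor clusters in the same 1 Mb window. Its median was 73.2%, close to the 73.9% around CpG-poor clusters of 70% to under 90%. In 5 classes of rising window level the median difference of >3-division from control was -1.52, -1.80, -2.17, -1.80 and -2.03 points, with 6.76%, 8.24%, 8.10%, 6.68% and 6.65% of clusters falling. The values do not order by window level. All 19 autosomes had a median below 0, between -2.72 points on chromosome 11, where 43 of 381 clusters (11.3%) fell, and -1.37 points on chromosome 9, where 15 of 256 (5.86%) fell. The lowest share was on chromosome 14, with 8 of 195 clusters (4.1%).

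The differences of neighbouring clusters were hardly correlated. The Pearson correlation of the difference between neighbours was 0.072 for 170 pairs under 2 kb apart, 0.016 for 247 pairs from 2 to 10 kb and -0.011 for 749 pairs from 10 to 50 kb; all pairs share both libraries. Of 1862 windows of 1 Mb with at least 1 cluster, 351 held a falling one: 311 held 1, 34 held 2 and 6 held 3. The windows held a median of 2 clusters, so few of them could hold several falls.

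Within the clusters, single CpGs were more uneven at >3 divisions. The range of levels between the CpGs of a cluster had a median of 10.5 points at >3 divisions, against 7.58 in control, and exceeded 20 points in 1047 clusters (19.3%) at >3 divisions, against 301 (5.54%) of control. Fewer reads widen such ranges. With each CpG thinned to its lowest coverage, the range exceeded 20 points in 19.6% of clusters at >3 divisions, 8.94% in control, 8.37% at 0 divisions and 7.60% at 1 division. Of the 17877 CpGs, 1955 (10.9%) were under 80% at >3 divisions and 559 (3.13%) in control, and 145 were under 50% at >3 divisions and 10 in control. Thinned, the counts under 50% were 144 at >3 divisions and 12 in control. The share of CpGs at 100% was 15.0% at >3 divisions and 8.18% in control as deposited, but 17.0% and 22.0% in the same libraries once thinned, so the order turned round at equal depth.

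In the 4032 clusters of 3 CpGs, the CpGs often differed in direction. All 3 were lower at >3 divisions in 946 clusters (23.5%) and all 3 higher in 308 (7.64%). Of the 291 such clusters that fell, 199 (68.4%) had all 3 CpGs lower. The same CpG was the lowest of the 3 at >3 divisions and in control in 1850 of 3460 clusters (53.5%) with a single lowest CpG in both, against 2154 of 3684 (58.5%) for the 1-division library and control. If each of the 3 CpGs were as likely to be the lowest, the share would be 33.3%. The same CpG was the lowest in all 4 libraries in 965 of 3245 clusters (29.7%) with a single lowest CpG in each. For all 4 libraries the equal share would be 3.70%.

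The outer CpGs of short clusters were, on average, further below control than the middle one. In clusters of 3 CpGs spanning under 40 bp (2218 clusters), the first CpG averaged 90.7% at >3 divisions and 93.6% in control, a difference of -2.91 points. The middle CpG averaged 91.5% at >3 divisions and 93.3% in control, a difference of -1.80 points. The last CpG averaged 90.4% at >3 divisions and 93.5% in control, a difference of -3.13 points. On 14 of 19 autosomes the middle CpG of these short clusters had a smaller mean difference than both outer ones. Clusters spanning 40 to under 100 bp had the same shape, with differences of -3.00, -1.97 and -2.75 points, and those of 100 bp or more had -4.52, -4.31 and -3.93 points, where the middle CpG no longer had the smallest difference. In 1-division minus control, in clusters of under 40 bp chosen by the 0-division library alone, the differences were 0.014, -0.053 and -0.084 points from first to last CpG. In 0-division minus control, in clusters chosen by the 1-division library alone, the middle CpG was instead the furthest below control. The differences were -0.17, -0.41 and -0.35 points in spans under 40 bp, -0.49, -1.53 and -0.47 points from 40 to under 100 bp, and -0.51, -0.99 and -0.36 points at 100 bp or more. In the longer spans the middle CpG thus differed from the outer ones at 0 divisions as well, in the other direction. The place of a CpG in a cluster goes with its place on the sequenced fragment, and the part of fragment ends in this pattern was not tested.

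**Figure D4:**
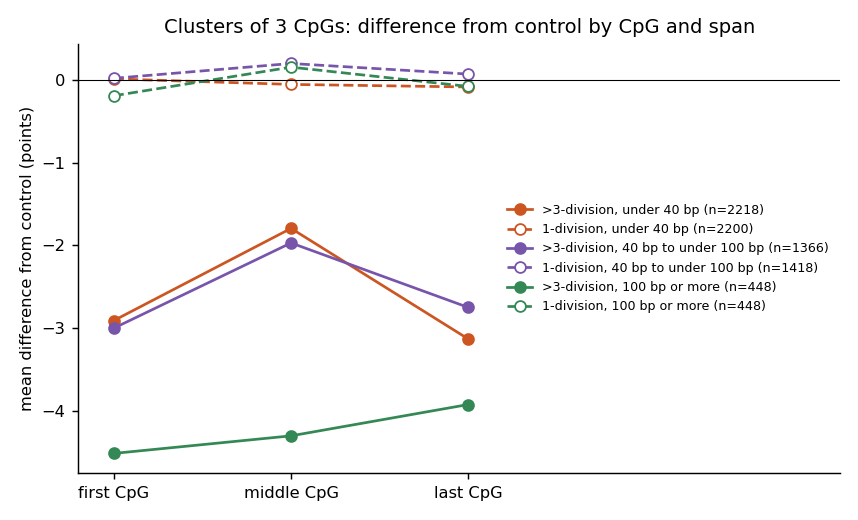
Mean difference from control in percentage points for the first, middle and last CpG of clusters with 3 CpGs, by span; filled points and solid lines are >3-division minus control in the near-fully methylated CpG-poor clusters, open points and dashed lines are 1-division minus control in clusters chosen by the 0-division library alone. In spans under 40 bp the >3-division differences are -2.91, -1.80 and -3.13 points, and all 1-division differences lie near 0.

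The clusters with the largest falls, among those with at least 50 reads in every library, were low at >3 divisions only. The clusters were chosen for a high pooled level at 0 divisions and 1 division, which largely sets the levels there. The high levels in those cohorts are thus not separate evidence for a fall limited to >3 divisions. The 3 CpGs on chromosome 8 from 122680773 to 122680843 were at 90.9% in control (95% Wilson interval 85.9% to 94.2%), 88.5% at 0 divisions (82.5% to 92.6%), 92.3% at 1 division (87.4% to 95.3%) and 49.1% at >3 divisions (36.1% to 62.1%; 53 reads, against 186 in control). The difference was -41.8 points with reads summed (Fisher's exact test, adjusted p = 1.14e-08) and -24.5 points with equal weight per CpG, because the last CpG, at 20.7% at >3 divisions and 67.6% in control, took 29 of the 53 reads. On the same chromosome, from 62359903 to 62359974, levels were 93.8% in control, 88.9% at 0 divisions, 92.3% at 1 division and 52.5% at >3 divisions (Fisher's exact test, adjusted p = 1.7e-11). Here all 3 CpGs were lower, at 60.6%, 37.5% and 50% at >3 divisions, against 95.1%, 91% and 95.7% in control.

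Other large falls differed in how the CpGs shared them. A set of 4 CpGs within 30 bp on chromosome 1, from 151359470 to 151359499, were low together: the levels lay between 60% and 65% at >3 divisions and between 94.9% and 97.4% in control, on 19 or 20 reads per CpG at >3 divisions. The difference was -33.5 points (Fisher's exact test, adjusted p = 1.38e-09). At 146693779 to 146693813 on the same chromosome the fall was graded along the cluster, with 90.3%, 67.7% and 19.4% at >3 divisions on 31 reads each, against 93.7%, 88.4% and 87.0% in control. On chromosome 9, from 114668766 to 114668813, the middle CpG alone was low, at 22.2% at >3 divisions, against 87.0% in control.

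One large fall came from the weight of a single CpG. On chromosome 1 from 180153656 to 180153859 the summed level was 57.6% at >3 divisions and 92.4% in control, a difference of -34.8 points. The third of its 4 CpGs was unmethylated in every library and took 22 of 59 reads at >3 divisions, against 14 of 278 in control. With equal weight per CpG the difference was -4.96 points, and after thinning -3.92 points with an adjusted p of 1 (Fisher's exact test). Such cases were few: of the 397 falling clusters, 360 (90.7%) still differed by 10 points or more with equal weight, 34 by 5 to 10 points and 3 by less than 5 points. The 4 other falls of this list had differences between -40.9 and -29.3 points and lay on chromosomes 2, 6, 8 and 12.

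**Figure D5:**
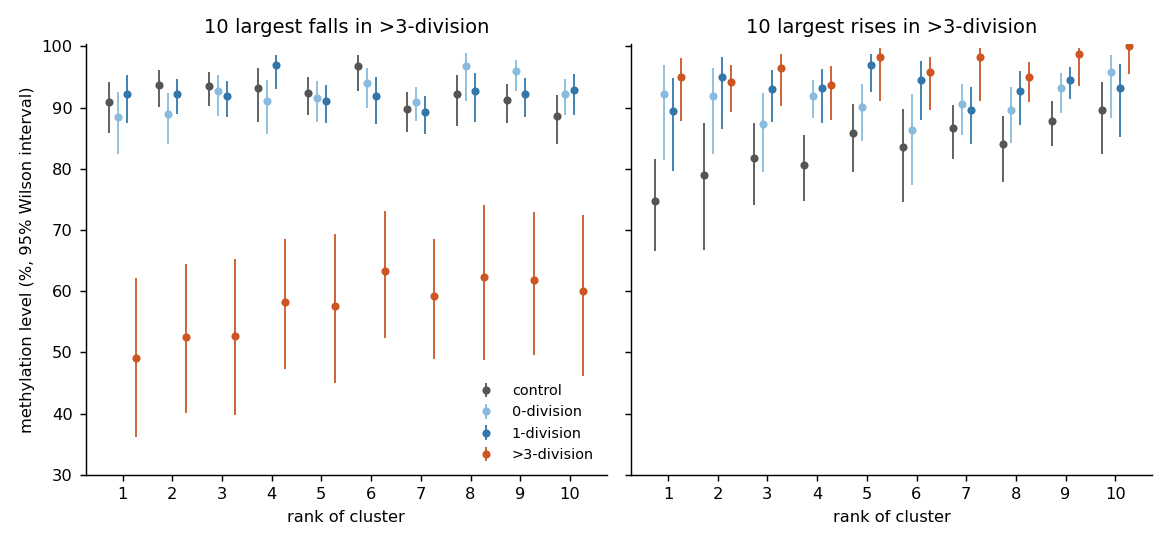
Methylation level (%) with 95% Wilson intervals in the 4 libraries for the 10 clusters with the largest falls (left) and the 10 with the largest rises (right) in >3-division against control; the axis starts at 30%. Among the falls the other libraries lie between 88.5% and 96.9% and >3-division between 49.1% and 63.3%, and in each of the rises control is the lowest. The clusters were chosen for a high pooled level in the libraries other than control and >3-division, which largely sets the levels of those libraries.

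Rises were smaller and rested on a low control. The 3 CpGs on chromosome 7 from 115578826 to 115578878 were at 74.8% in control (66.6% to 81.5%; 127 reads), 92.2% at 0 divisions (81.5% to 96.9%), 89.4% at 1 division (79.7% to 94.8%) and 95% at >3 divisions (87.8% to 98%; 80 reads). The difference was 20.2 points (Fisher's exact test, adjusted p = 0.00139). On chromosome 4 from 153654409 to 153654481 the levels were 94.2% at >3 divisions on 154 reads and 78.9% in control on 57 reads, a difference of 15.2 points (Fisher's exact test, adjusted p = 0.0192). The 8 other rises were of 10.4 to 14.8 points. In all 10, the 0-division and 1-division libraries were also above control. The clusters were chosen for a high pooled level in those libraries, which largely sets this order, so it is not separate evidence for a rise.

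By read counts alone, the 5 deepest clusters give the most precise values. With the CpGs of the very highest coverage left out, only 2 of the 5 remained, the neighbours on chromosome 12. Why the others drew so many reads was not tested, and their intervals cover counting error only. In 3 of the 5 deepest clusters, those on chromosomes 8 and 17, the difference between >3-division and control was under 2 points. On chromosome 8 from 19893896 to 19893924 the level was 91.8% in control (91.1% to 92.4%; 6434 reads), 91.7% at 0 divisions, 92% at 1 division and 91% at >3 divisions (90.2% to 91.7%; 6041 reads), and the intervals of >3-division and control overlapped. At 19783826 to 19783854, also on chromosome 8, it was 90.6% at >3 divisions and 92.2% in control, a difference of -1.6 points (Fisher's exact test, adjusted p = 0.0123). On chromosome 17 from 6442291 to 6442303 it was 96.7% at >3 divisions and 97.2% in control, a difference of -0.53 points. The other 2 of the deepest clusters, neighbours on chromosome 12, had larger differences of -5.06 and -7.84 points and are described next.

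The clusters with the most CpGs show the change CpG by CpG. The longest, 17 CpGs on chromosome 12 from 5063455 to 5064320, was at 95.3% in control (94.3% to 96.2%), 94.7% at 0 divisions, 95.4% at 1 division and 90.3% at >3 divisions (88.8% to 91.6%; Fisher's exact test, adjusted p = 6.23e-08). The next 11 CpGs along, from 5064568 to 5065127, were at 88.2% at >3 divisions and 96.0% in control, with every CpG lower at >3 divisions. Both stayed under the 10 points needed for a call with reads summed. For the cluster of 11 CpGs this turned with the setting. The difference was -7.84 points with reads summed (Fisher's exact test, adjusted p = 2.44e-11) and -10.5 points with equal weight per CpG. It was -10.5 points thinned to equal depth (Fisher's exact test, adjusted p = 8.59e-12). With gaps of at most 50 bp only the CpGs from 5064723 to 5064817 stayed together, and that smaller cluster had a difference of -10.4 points. On chromosome 19 from 29525601 to 29525916, 8 CpGs were at 75.4% at >3 divisions and 93.3% in control, a difference of -17.9 points (Fisher's exact test, adjusted p = 4.08e-06), with 7 of the 8 CpGs lower. On chromosome 14 from 68380010 to 68380333, 7 CpGs were at 91.6% at >3 divisions and 93.3% in control, a difference of -1.70 points that did not pass the test. On chromosome 12 from 110832865 to 110833152 the first of 6 CpGs was at 35.6% at >3 divisions, against 64.7% in control, while the other 5 lay between 94.6% and 97.9% at >3 divisions and between 96.9% and 98.7% in control. Long CpG-poor clusters thus included one that fell clearly and one whose call turned with the setting. In another the difference sat mostly in a single CpG. The clusters of 17 and 7 CpGs differed by -5.06 and -1.70 points.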

How the data were processed

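RRBS libraries were made from MspI fragments of 40 to 220 bp, per the labels' protocols. The authors deposited, for each of the 4 libraries, positions on mm9 (per the submitters' processing notes) with a pair of read counts per CpG. The files have no header. The first count was taken as methylated, because it was 0 at 58.7% of 476359 CpG-dense CpGs in control, where the second was 0 at 0.282%. Not given in the sources used here are the aligner, the methylation caller, the conversion check, duplicate handling and whether positions start at 0 or 1.

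Clusters were built from the 1045368 CpGs with at least 10 reads in all libraries. Levels are methylated reads over all reads, summed per cluster. Each contrast was tested with Fisher's exact test, two-sided (SciPy 1.17.1) with Benjamini-Hochberg adjustment over 99566 clusters, and tested on simulated data. The regions described singly are, among clusters called and with at least 50 reads in each library, the 10 largest falls and 10 largest rises, plus the 5 deepest and the 5 with most CpGs, and the deepest on either side of each limit. Alternatives were other coverage minimums, gaps, densities and level limits, equal weight per CpG, thinning, division of reads by the overdispersion between the 1-division and control libraries, and, added after seeing the data, limits on depth. The clusters and lists were chosen with earlier results of these data known. No genome or annotation of mm9 was used here, so no gene or sequence is given.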

Additional observations from a re-analysis of the deposited data

How the results depend on the processing

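In >3-division minus control the median difference was below 0 under every alternative run, from -2.48 points (10 reads required in the 3 other libraries only) to -0.41 points (clusters whose >3-division reads were at least 0.9 times those of control, 1298 clusters). It was -0.98 points with a level limit of 95% and -1.14 points with at least 200 reads in each library. The share that fell, 7.30%, was 4.69% with a coverage minimum of 20 reads, 3.91% with a level limit of 95%, 1.2% with a minimum difference of 20 points, 3.18% thinned to equal depth (7.89% of all clusters), 3.22% with reads divided by the overdispersion of 1.63 (7.03% of all clusters), 0.770% at a depth ratio of at least 0.9 (4.68% of all such clusters) and 1.64% with at least 200 reads (7.75% of all such). Other settings raised this share. It was 10.1% with 10 reads required in the 3 other libraries only (12.6% of all clusters). With a minimum difference of 5 points it was 10.2% (15.6% of all clusters). It was 9.71% with a level limit of 85%, 8.73% with gaps of at most 200 bp and 8.60% with 5 reads. With gaps of at most 50 bp it was 5.90%. The limits on depth were chosen after seeing the data. In >3-division minus 0-division the share was 8.54% with 5 reads, 3.78% thinned (8.38% of all clusters) and 3.83% with overdispersion (7.55%). In >3-division minus 1-division it was 8.54% with 5 reads, 4.74% with 20 reads, 3.52% thinned and 3.49% with overdispersion. In 0-division minus control it was 0.395% with 5 reads (0.436% of all clusters), 0.0516% thinned (0.134%) and 0.0344% with overdispersion (0.0552%). In 1-division minus control it was 0.0183% thinned (0.0422% of all clusters) and 0% with overdispersion (0.0161%). Thinning and overdispersion leave fewer reads to test; the other causes were not tested. Under thinning 9 of the 10 largest falls and 4 of the 10 largest rises kept their call, and under overdispersion 10 falls and 1 rise. One rise, on chromosome 10 at 65126359, reversed to -3.87 points with 5 reads and -3.85 points with coverage required in 3 libraries. These settings leave the reads of the original CpGs unchanged and admit further CpGs, so the cluster compared there was a larger one. The added CpGs were not examined. No paired analysis was possible because each group had 1 library. Depth limits the calls most at >3 divisions, with a median of 112 reads per cluster.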

Other observations

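Among the 5 clusters with the most CpGs, some had evenly spaced CpGs. The gap between neighbours was 53 or 54 bp throughout the 7 CpGs on chromosome 14 at 68380010, and 66 bp was the commonest of 5 gaps on chromosome 12 at 110832865. On chromosome 19 at 29525601, where the difference was -17.9 points, 35 bp was the commonest of 7 gaps. There 5 gaps were within 2 bp of the median, and gaps ran from 35 to 70 bp. The neighbouring clusters on chromosome 12 at 5063455 and 5064568 were less even: 62 bp was the commonest gap in both, but 8 of 16 and 6 of 10 gaps were within 2 bp of the median, and gaps ran from 24 to 93 bp and from 30 to 93 bp. Of the 115 near-fully methylated CpG-poor clusters with at least 5 CpGs, 10 (8.70%) had at least 75% of their gaps within 2 bp of the cluster's median gap. The same held for 9 of 339 CpG-poor clusters (2.65%) from 70% to under 90% and for 4 of 217 (1.84%) under 70%. This measure was chosen after the values were seen, and no test was made. The 10 evenly spaced clusters had a median difference of -1.52 points between >3-division and control, against -2.17 points over all 115.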
